A study of Mus musculus with 11 samples.

Results

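The chemokine ligands are small secreted proteins that steer migrating cells, and 33 of the 18193 genes named on the array belonged to the family. Members were genes whose only symbol in the platform annotation begins with Cxcl, Ccl, Cx3cl or Xcl and then has a number. Where a gene had several probe sets, the brightest on average over the 11 arrays stood for it, and the rule for members used symbols, not expression values. Probe sets that carry several symbols were left unnamed, and 4 of them held a chemokine symbol. The spacing of the cysteines at the start of the protein divides the family into CXC, CC, C and CX3C ligands. Ligands act on receptors with the same prefix on leukocytes and other cells, are held on cell surfaces by heparan sulphate, and are trimmed by proteases and scavenged by atypical receptors. In the muscle wall of the gut, resident macrophages, stromal cells and endothelium are known sources, and many inflammatory members are transcribed through NF-kappaB or interferon-regulated factors.

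The study compared progenitor cell lines of the ICC lineage (interstitial cells of Cajal, the pacemakers of gut muscle) with the tissue from which they came, the gastric tunica muscularis. The C57BL/6J line (3 arrays) is a clonally derived line, 2xSCS2F10, from wild-type C57BL/6J mice, grown at 37 °C in neural stem cell medium with chick embryo extract at 5%. Another clonal line, 2xSCS70, here the tsA58 line (3 arrays), came from the H-2Kb-tsA58 strain, whose transgene puts a thermolabile viral T antigen behind a promoter that interferon induces. It was grown at 39.5 °C in the same medium, with no interferon-gamma and with no extract named. The C57BL/6J tissue (2 arrays) and tsA58 tissue (3 arrays) were stomach muscle wall of the same strains, not cultured. Each kind of line is 1 clone, so clone, strain, T antigen transgene, temperature and chick embryo extract cannot be told apart between the lines. The titles call the replicates biological, but nothing says that they came from separate cultures or animals. The p-values then measure only the spread between these arrays, which may be technical.

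Values are log2 intensities, and the median over all probe sets of an array lay between 4.66 and 4.84. Array-to-array correlations within a group were 0.956 to 0.991, the lowest of them in the tsA58 line. In both lines Kit, the receptor tyrosine kinase that defines mature ICC, was below the array median (3.60 ± 0.26 and 3.51 ± 0.32, SD, n = 3 each). It was at 7.15 ± 0.45 (n = 2) in C57BL/6J tissue and 7.87 ± 0.66 (n = 3) in tsA58 tissue, while Cd44, used to mark ICC progenitors, stood at 10.8 ± 0.16 and 11.1 ± 0.55 (n = 3 each) in the lines. The tissue was not muscle alone: the mean of 10 gastric epithelial markers was 9.83 to 11.75 on its arrays against 5.02 to 5.95 in the lines. Macrophage markers (12 genes) averaged 6.77 to 6.93 in C57BL/6J tissue, 7.16 to 8.42 in tsA58 tissue, 5.03 to 5.18 in the C57BL/6J line and 4.49 to 4.63 in the tsA58 line. In these bulk samples fewer cells of a type and less RNA per cell cannot be told apart. Replicate 3 of the tsA58 line stood apart from the other two, with a mean over 4 mesothelial markers of 9.92 against 7.0 and 6.32 and a log2 ratio of 3′ to 5′ actin signal of 0.053 against 0.511 and 0.853. For most calls of a member that changed on leaving it out, the value or range without it is given. Array measures also differed by strain, so their part cannot be cleanly separated from clone, strain or culture. The actin ratio was 0.995 to 1.036 in the C57BL/6J line. It was 1.02 and 0.844 in C57BL/6J tissue and 0.415 to 0.472 in tsA58 tissue. Hybridisation controls read 9.325 to 9.903 in the C57BL/6J line and 7.929 to 8.261 in the tsA58 line. In tissue they read 10.96 and 10.77 in C57BL/6J and 7.517 to 9.658 in tsA58.

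Promoter sequences are shown for the 5 members with a promoter entry that were called between the lines (Cxcl1, Cxcl2, Cxcl15, Ccl20 and Cxcl10), and for Cxcl3, which has the motif of its neighbours but stayed far below the array median. They are the 250 bases before the annotated start in RefSeq, build GRCm38.p6, printed on the strand of the gene. A promoter entry was found for 23 of the 33 members. Capitals mark matches, on either strand, to the NF-kappaB consensus and, in Cxcl10, also to GAAA-NN-GAAA, an interferon-response type of element. The NF-kappaB consensus was present in 7.25% of the 32851 promoters in the RefSeq table and GAAA-NN-GAAA in 2.98%.
Cxcl1 promoter, chr5:90890995-90891244, plus strand: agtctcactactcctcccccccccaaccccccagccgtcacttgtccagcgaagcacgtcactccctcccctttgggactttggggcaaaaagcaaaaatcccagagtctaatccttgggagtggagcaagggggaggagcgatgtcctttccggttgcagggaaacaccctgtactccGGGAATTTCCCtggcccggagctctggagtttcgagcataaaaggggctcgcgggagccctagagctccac
Cxcl2 promoter, chr5:90903649-90903898, plus strand: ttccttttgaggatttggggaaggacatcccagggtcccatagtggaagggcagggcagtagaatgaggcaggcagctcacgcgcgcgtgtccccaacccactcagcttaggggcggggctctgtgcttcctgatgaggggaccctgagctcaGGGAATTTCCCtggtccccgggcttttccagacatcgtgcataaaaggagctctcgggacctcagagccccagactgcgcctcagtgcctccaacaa
Cxcl3 promoter, chr5:90785851-90786100, plus strand: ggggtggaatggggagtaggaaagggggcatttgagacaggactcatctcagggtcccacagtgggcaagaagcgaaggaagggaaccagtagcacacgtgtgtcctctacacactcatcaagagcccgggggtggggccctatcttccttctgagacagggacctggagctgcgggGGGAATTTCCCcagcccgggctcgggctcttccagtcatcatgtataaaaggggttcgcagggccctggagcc
Cxcl15 promoter, chr5:90794284-90794533, plus strand: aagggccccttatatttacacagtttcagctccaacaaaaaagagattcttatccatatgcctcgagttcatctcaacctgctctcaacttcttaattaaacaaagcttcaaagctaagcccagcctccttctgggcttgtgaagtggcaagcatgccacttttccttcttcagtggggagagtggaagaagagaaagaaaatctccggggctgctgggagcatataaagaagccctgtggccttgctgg
Ccl20 promoter, chr1:83116516-83116765, plus strand: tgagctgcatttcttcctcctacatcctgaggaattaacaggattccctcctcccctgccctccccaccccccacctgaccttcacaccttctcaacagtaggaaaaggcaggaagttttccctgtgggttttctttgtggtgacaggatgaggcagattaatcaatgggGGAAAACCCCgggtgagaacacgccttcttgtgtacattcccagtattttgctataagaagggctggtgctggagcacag
Cxcl10 promoter, chr5:92348890-92349139, minus strand: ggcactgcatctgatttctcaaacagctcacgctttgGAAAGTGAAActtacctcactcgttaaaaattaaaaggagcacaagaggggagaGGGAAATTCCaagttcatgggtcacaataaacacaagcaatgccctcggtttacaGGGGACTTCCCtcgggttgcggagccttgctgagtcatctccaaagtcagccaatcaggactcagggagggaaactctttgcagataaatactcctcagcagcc
Cxcl1, Cxcl2 and Cxcl3 carried the same run, GGGAATTTCCC, which begins 71, 97 and 73 bases before the start. The match in Ccl20 was GGAAAACCCC, beginning 80 bases before the start. Cxcl10 held a pair of NF-kappaB matches, GGGAAATTCC and GGGGACTTCCC, and GAAAGTGAAA farther out, beginning 213 bases before the start. The Cxcl15 window held neither motif and so has no capitals. The other members with an NF-kappaB match were Ccl1 and Ccl9, and the other with GAAA-NN-GAAA was Cxcl14. A match describes the letters and shows no binding.

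Many group means of the family were near or below the array median. A group mean no more than 1 log2 unit above the mean array median of 4.74 was counted as near it. By that measure 21 of 33 C57BL/6J line means and 25 C57BL/6J tissue means were near or below the median, as were 17 for the tsA58 line and 21 for tsA58 tissue. With a margin of 0.5 the numbers were 17, 19, 14 and 19. Group means of all genes were not counted this way, so nothing particular to the family is read from these numbers. By a different measure, 11550 of all 18193 genes exceeded the array median by more than 1 log2 unit on at least 2 arrays. There were 12 members near or below it in all 4 groups: Ccl1, Ccl3, Ccl4, Ccl12, Ccl17, Ccl22, Ccl28, Cxcl2, Cxcl3, Cxcl9, Cxcl14 and Xcl1. Of these, Ccl3, Ccl22, Cxcl3, Cxcl9 and Xcl1 did not exceed the median on 2 arrays and were not tested. Their values ran from 2.40 to 4.72 over all arrays.

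**Figure D1:**
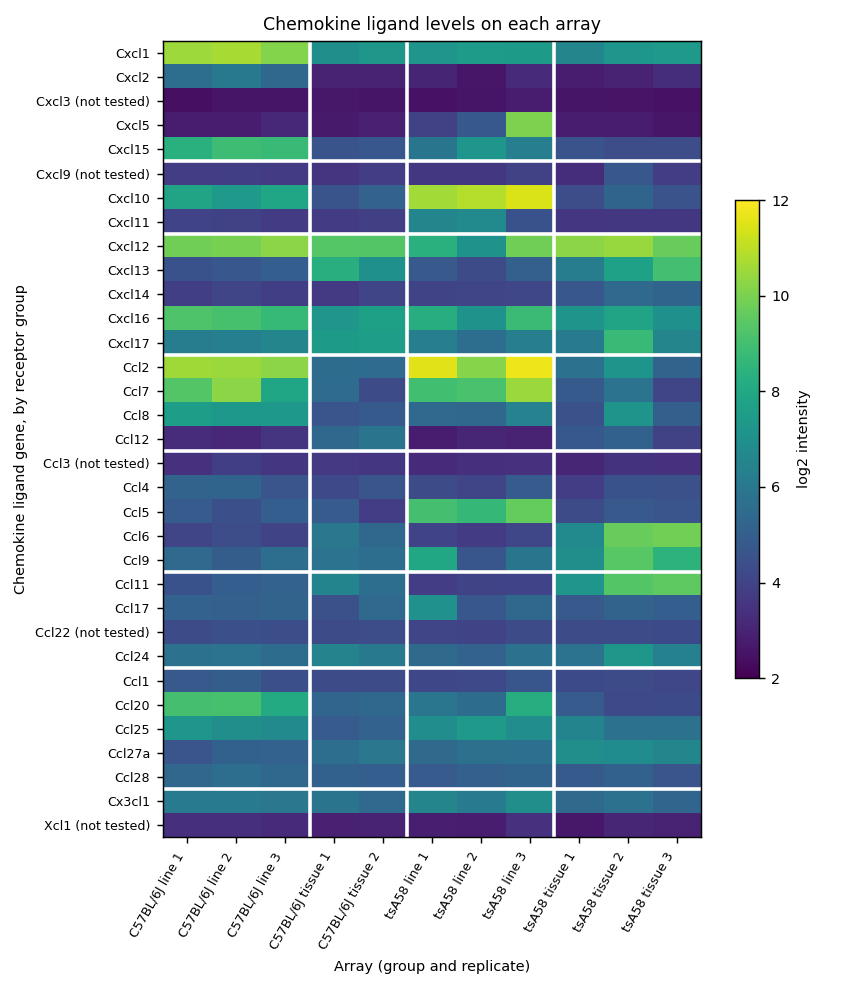
Log2 intensity (colour) of each of the 33 chemokine ligands (rows, grouped by receptor) on each of the 11 arrays (columns, grouped by sample group). Cxcl1 is bright in the 3 C57BL/6J line arrays, Cxcl10 and Ccl5 in the 3 tsA58 line arrays, Ccl2 in both lines, and Ccl6 and Ccl11 in the tsA58 tissue arrays.

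The other 28 members were tested with limma in 1 model over all arrays. A call needed a change of 2-fold or more and a Benjamini-Hochberg adjusted p, over all 13285 genes tested, below 0.05. Against tissue of its own strain, the C57BL/6J line had 12 of the 28 called, 10 higher and 2 lower, where 34.1% of all genes tested were called (17.5% higher, 16.6% lower). The tsA58 line had 19 of 28 called against its tissue, 10 higher and 9 lower, where 31.7% of all genes were called (12.8% higher, 18.9% lower). The median log2 difference of the tested members was 0.41 in the C57BL/6J comparison and 0.19 in the tsA58 comparison, against 0.12 and -0.00 for all genes. Both figures describe the tested members, and the filter removed those low everywhere.

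The 2 line-tissue comparisons do not share samples. Ccl2, Ccl7, Ccl20, Ccl25, Cxcl10 and Cxcl15 were called higher in both lines, and Ccl12 and Cxcl13 lower in both. Ccl8, Cxcl1, Cxcl2 and Cxcl16 were called higher in the C57BL/6J line only, and Ccl5, Cx3cl1, Cxcl5 and Cxcl11 in the tsA58 line only. Ccl6, Ccl9, Ccl11, Ccl24, Ccl27a, Cxcl12 and Cxcl14 were called lower in the tsA58 line only. A call in 1 comparison and not in the other does not show that they differ. That difference was tested by the interaction term, the tsA58 line-tissue difference minus the C57BL/6J one, which called 9 of 28 members, 3 positive and 6 negative, against 20.3% of all genes (7.3% positive, 13% negative). Without C57BL/6J tissue replicate 1 or 2 the interaction called 5 and 4 members. Without tsA58 line replicate 3 it called 13, 4 positive and 9 negative, not all of them named here. Centring the arrays on hybridisation controls moved the median difference of all genes to 1.35 and 0.60 in the C57BL/6J and tsA58 line-tissue comparisons, 1.45 between the lines, 2.30 between the tissues and -0.82 in the interaction. It gave 16 higher and 1 lower in the C57BL/6J comparison, 10 and 3 in the tsA58 comparison, and 1 positive and 6 negative in the interaction. The calls lost under it include those between the lines for Ccl20 (-0.71) and Cxcl15 (-0.69), those between tsA58 line and tissue for Ccl9 (-1.49), Ccl24 (-0.46), Cxcl12 (-1.11) and Cxcl14 (-0.43), and the interactions of Cxcl11 (1.64), Cxcl14 (-1.69) and Cxcl15 (-2.59). With array weights the C57BL/6J split was 10 to 6, and the interaction split 3 to 10.

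**Figure D2:**
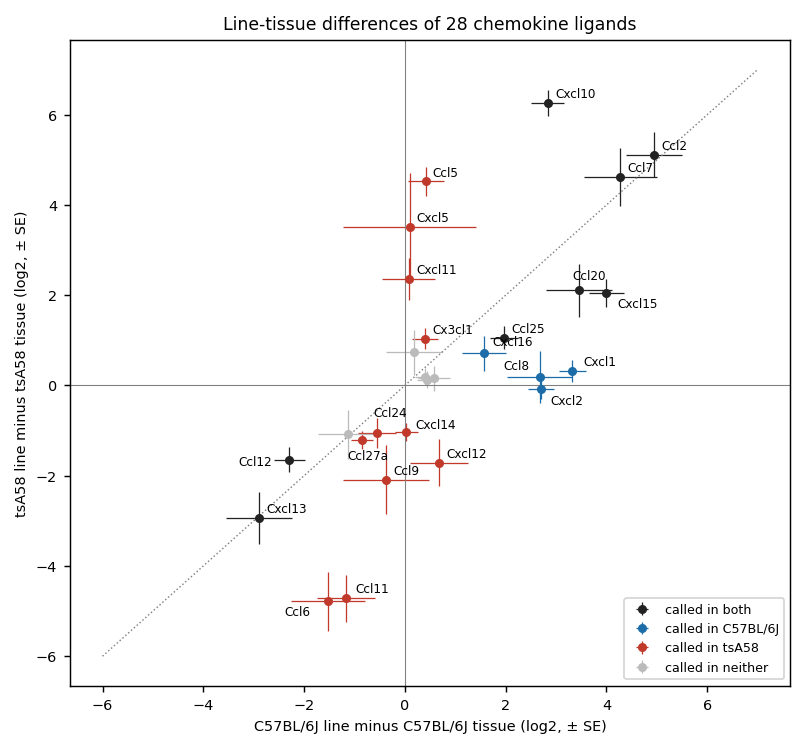
Log2 difference between line and tissue in C57BL/6J (x axis) and in tsA58 (y axis) for the 28 tested chemokine ligands, with standard errors from limma as bars. The dotted line marks equal differences: Ccl2 and Ccl7 lie near it at the upper right and Cxcl13 at the lower left, Cxcl10, Ccl5 and Cxcl11 lie above it, and Cxcl1, Cxcl2, Ccl11 and Ccl6 lie below it.

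A group of 5 members was listed here under CXCR2, the receptor that draws neutrophils. The grouping was a choice made for the description, and receptor use was not tested. Of the 5, Cxcl1, Cxcl2 and Cxcl15 were higher in the C57BL/6J line than in its tissue. Cxcl1, a main neutrophil attractant in the mouse, had values of 10.52, 10.70 and 10.14 in the C57BL/6J line and 6.97 and 7.28 in its tissue. The tsA58 line read 7.20, 7.51 and 7.45, and its tissue 6.60, 7.24 and 7.37. The C57BL/6J line therefore stood above every other array, and the tsA58 line and its tissue overlapped. Cxcl1 was 3.33 ± 0.27 (log2, SE) higher in the C57BL/6J line than in its tissue (limma, adjusted p = 5.8e-06). It was lower in the tsA58 line than in the C57BL/6J line by a log2 difference of -3.07 ± 0.24 (adjusted p = 2.2e-05), and the interaction was -3.01 ± 0.36 (adjusted p = 0.0006).

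The probe set chosen for Cxcl1 gave smaller differences than the gene's other 2 probe sets, which read 12.3 ± 0.11 and 12.3 ± 0.14 (SD, n = 3) in the C57BL/6J line. The matching tissue read 3.46 ± 0.13 and 6.01 ± 0.03 (n = 2), which is 8.84 and 6.30 below the line. With the most variable probe set per gene in place of the brightest, the line-tissue difference of Cxcl1 was 8.84 in C57BL/6J (adjusted p = 1.6e-08). The tsA58 line then also exceeded its tissue, by 1.54 (adjusted p = 0.0011), where the chosen probe set gave 0.32 ± 0.24 (adjusted p = 0.3). The interaction was -7.30 (adjusted p = 1.4e-05).

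Cxcl2, which also attracts neutrophils, read 5.63, 6.04 and 5.38 in the C57BL/6J line and between 2.62 and 3.30 on all other arrays. Its line values were thus only about as high as the near-median limit of 5.74, and every other array was well under the array median. The difference from C57BL/6J tissue was 2.71 ± 0.26 (limma, adjusted p = 1.7e-05) and the interaction -2.78 ± 0.34 (adjusted p = 0.00076). The tsA58 line was below the C57BL/6J line, with a log2 difference of -2.72 ± 0.23 (adjusted p = 3.5e-05). On the scale centred on hybridisation controls that difference was -1.23 (adjusted p = 0.07).

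Cxcl15, also called lungkine, read 8.34, 8.89 and 8.73 in the C57BL/6J line and 4.60 and 4.70 in C57BL/6J tissue. The tsA58 line read 5.89, 7.27 and 6.26, and its tissue 4.58, 4.36 and 4.36. No values overlapped between line and tissue in either strain, and both differences were called, at 4.0 ± 0.34 (adjusted p = 9.4e-06) and 2.04 ± 0.31 (adjusted p = 0.00036). The tsA58 line was lower than the C57BL/6J line at -2.17 ± 0.31 (adjusted p = 0.00086), and the interaction was -1.96 ± 0.46 (adjusted p = 0.014). These last values rested on the probe set. The other probe set of Cxcl15 gave 4.59 for the tsA58 line against its tissue (adjusted p = 1.6e-06), and between the lines only -0.94 (adjusted p = 0.062). On it the interaction was -0.74 (adjusted p = 0.3). Without C57BL/6J tissue replicate 1 or 2 the interaction was -2.01 to -1.91 with an adjusted p of 0.05 to 0.059.

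Cxcl5, a CXCR2 ligand made by epithelial and mesothelial cells, was clearly above the array median on only 1 array, of the tsA58 line. It read 3.94, 4.74 and 10.01 in the tsA58 line and between 2.62 and 3.17 on the other 8 arrays. The 3 tsA58 line values lay above all others, though only replicate 3 was well above the array median. The line-tissue difference was 3.52 ± 1.19 (limma, adjusted p = 0.031). Without replicate 3 of the tsA58 line it was 1.63 (adjusted p = 0.00043), between values near or under the array median. Cxcl5 passed the filter only through tsA58 line replicates 2 and 3, and replicate 2 was at 4.74 against an array median of 4.67. The gene was thus tested because of the group in which it was high. Against the C57BL/6J line the tsA58 line differed by 3.32 ± 1.19 (adjusted p = 0.067), and by 1.43 (adjusted p = 0.0018) without replicate 3. Leaving out any 1 tsA58 tissue array gave 3.47 to 3.55 with an adjusted p of 0.064 to 0.074, and array weights gave 1.57 (adjusted p = 0.064). In that replicate the mean of the 4 mesothelial markers was also high for the tsA58 line, at 9.92. That mean was 10.002 to 10.627 in the C57BL/6J line and 8.734 to 9.199 in the tissues, where Cxcl5 was at 2.62 to 3.17. The part of these markers in the result was not tested.

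**Figure D3:**
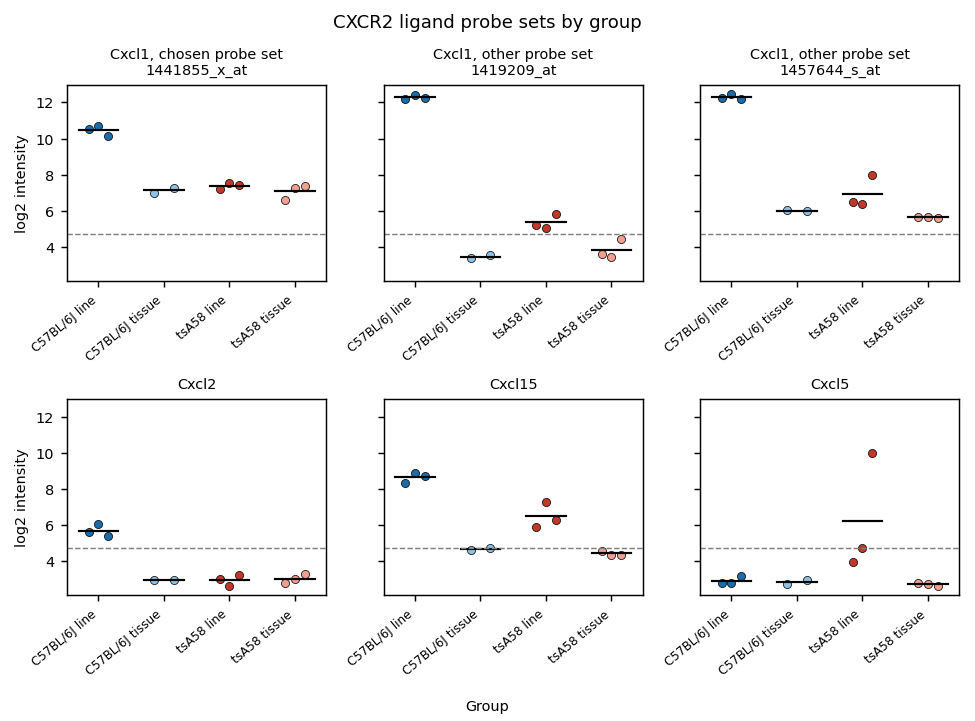
Log2 intensity (y axis) of the 3 Cxcl1 probe sets and of Cxcl2, Cxcl15 and Cxcl5 in the 4 groups (x axis), with 1 point per array, a bar at the group mean and a dashed line at the mean array median of 4.74. The C57BL/6J line is highest in each Cxcl1 panel, in Cxcl2 and in Cxcl15, and 1 tsA58 line array at 10.01 sets the Cxcl5 mean.

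The interferon-induced ligands of CXCR3, a receptor of activated T and natural killer cells, were highest in the tsA58 line, apart from Cxcl9. Cxcl10 read 10.61, 10.90 and 11.43 in the tsA58 line and 4.37, 5.24 and 4.56 in its tissue. It read 7.83, 7.38 and 7.93 in the C57BL/6J line and 4.60 and 5.15 in that tissue. The groups were ordered tsA58 line, C57BL/6J line and then both tissues, which overlapped. The difference between the lines was 3.27 ± 0.29 (limma, adjusted p = 5.5e-05), and the C57BL/6J line exceeded its tissue by 2.84 ± 0.33 (adjusted p = 6.3e-05). The interaction was 3.42 ± 0.44 (adjusted p = 0.00091), and 2.78 (adjusted p = 0.059) with arrays centred on hybridisation controls.

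Cxcl11 read 6.59, 6.78 and 4.52 in the tsA58 line and between 3.57 and 4.02 on the other 8 arrays. Replicate 3 of the tsA58 line was the low one, and still above all arrays of the other groups. The line-tissue difference was 2.35 ± 0.47 in tsA58 (limma, adjusted p = 0.002), and the tsA58 line exceeded the C57BL/6J line by 2.05 ± 0.47 (adjusted p = 0.011). Without replicate 3 these were 3.07 and 2.77 (adjusted p = 3.7e-07 and 5.9e-06). The interaction, 2.28 ± 0.70 (adjusted p = 0.04), was lost on leaving out any 1 library other than that replicate, at 1.87 to 2.33 (adjusted p = 0.059 to 0.12). Without it the interaction was 3.00 (adjusted p = 4.8e-05). RefSeq lists Cxcl11 in the C57BL/6J genome as a transcribed pseudogene. Cxcl9 stayed between 3.30 and 4.72 on all arrays and was not tested.

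Ccl5, a chemokine best known from T cells, was high in the tsA58 line only. It read 9.03, 8.68 and 9.63 in the tsA58 line and between 3.84 and 4.97 on the other 8 arrays. The tsA58 line was thus the only group clear of the array median. It exceeded tsA58 tissue by 4.52 ± 0.32 (limma, adjusted p = 1.5e-06) and the C57BL/6J line by 4.33 ± 0.32 (adjusted p = 1.6e-05). The interaction was 4.11 ± 0.48 (adjusted p = 0.00053). Of 6 T and natural killer cell markers found on the array, 5 were near or below the median in the tsA58 line, and their mean there was 4.26 to 4.57. In tsA58 tissue, where Ccl5 was low, that mean was 4.28 to 4.80. Only 3 of the 6 markers passed the filter. The part of T and natural killer cells in the Ccl5 result was not tested.

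**Figure D4:**
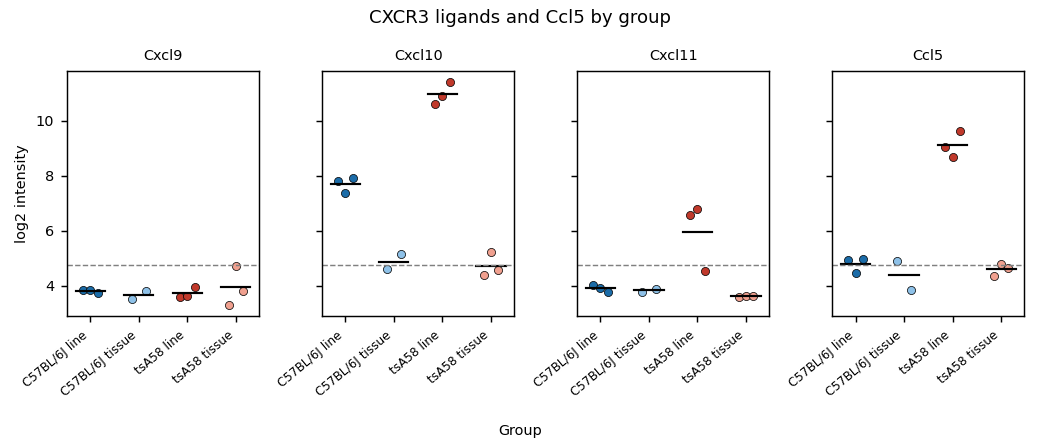
Log2 intensity (y axis) of Cxcl9, Cxcl10, Cxcl11 and Ccl5 in the 4 groups (x axis), with 1 point per array, a bar at the group mean and a dashed line at the mean array median of 4.74. The tsA58 line is above every other group for Cxcl10, Cxcl11 and Ccl5, and Cxcl9 stays at or under 4.72.

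The monocyte attractants Ccl2 and Ccl7, ligands of CCR2, were high in both lines and low in both tissues. Ccl2 read 10.59, 10.49 and 10.25 in the C57BL/6J line and 11.56, 10.17 and 11.74 in the tsA58 line. Its tissue values were 5.52 and 5.49 in C57BL/6J and 5.74, 7.18 and 5.20 in tsA58. Lines and tissues did not overlap, whereas the 2 lines did. The differences were 4.94 ± 0.56 (limma, adjusted p = 5.4e-05) and 5.11 ± 0.50 (adjusted p = 1.7e-05). Ccl7 read 9.32, 10.28 and 7.93 in the C57BL/6J line and 8.97, 9.14 and 10.49 in the tsA58 line, against 4.11 to 5.81 in the tissues. It exceeded tissue by 4.27 ± 0.72 (adjusted p = 0.00074) and 4.62 ± 0.65 (adjusted p = 0.00022).

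Ccl8, another monocyte attractant, read 7.56, 7.32 and 7.35 in the C57BL/6J line and 4.64 and 4.83 in its tissue, a difference of 2.68 ± 0.64 (limma, adjusted p = 0.0059). The tsA58 line read 5.43, 5.38 and 6.44 and its tissue 4.47, 7.19 and 5.02, which overlapped. The interaction was -2.49 ± 0.86 (adjusted p = 0.061), and -2.83 (adjusted p = 0.034) without replicate 3 of the tsA58 line. Between the lines Ccl8 differed by -1.66 ± 0.57 (adjusted p = 0.06), and by -2.0 (adjusted p = 0.032) without that replicate. Ccl12, a ligand of CCR2 like Ccl2 and Ccl7, went the other way. It read 2.82 to 3.51 in the lines, 5.37 and 5.84 in C57BL/6J tissue and 4.74, 5.12 and 3.94 in tsA58 tissue, with all group means near or below the array median. The line-tissue differences of Ccl12 were -2.30 ± 0.31 (adjusted p = 0.00018) and -1.65 ± 0.28 (adjusted p = 0.00073). With arrays centred on hybridisation controls they were -1.06 and -1.05 (adjusted p = 0.18 and 0.22).

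Among ligands that guide lymphocytes and dendritic cells to tissues, Ccl20 and Ccl25 were higher in both lines. Ccl20, the ligand of CCR6, read 9.05, 9.10 and 8.13 in the C57BL/6J line against 5.28 and 5.32 in tissue. It read 5.91, 5.53 and 8.24 in the tsA58 line against 4.89, 4.21 and 4.26. The differences were 3.46 ± 0.66 (limma, adjusted p = 0.0016) and 2.11 ± 0.59 (adjusted p = 0.013). Replicate 3 of the tsA58 line alone reached the range of the C57BL/6J line, and without it the tsA58 difference was 1.27 (adjusted p = 0.0083). Between the lines Ccl20 differed by -2.20 ± 0.59 (adjusted p = 0.023), and by -3.04 (adjusted p = 0.00014) without that replicate. Its interaction was -1.35 ± 0.88 (adjusted p = 0.3), and -2.19 (adjusted p = 0.006) without it. Leaving out C57BL/6J line replicate 1 or 2 or tsA58 line replicate 1 or 2 gave -2.05 to -1.68 (adjusted p = 0.076 to 0.089).

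Ccl25, which attracts gut-homing lymphocytes through CCR9, read 7.25, 6.95 and 6.75 in the C57BL/6J line and 4.87 and 5.16 in its tissue. In tsA58 it read 6.88, 7.40 and 6.91 in the line and 6.50, 5.79 and 5.74 in tissue. Neither pair overlapped, and the differences were 1.97 ± 0.28 (limma, adjusted p = 0.00024) and 1.06 ± 0.25 (adjusted p = 0.0055). The smaller one fell under 2-fold, at 0.89 to 0.95, without tsA58 line replicate 2 or tsA58 tissue replicate 2 or 3. Ccl27a, a skin-type ligand of CCR10, was lower in the tsA58 line (5.44 to 5.69) than in its tissue (6.58 to 6.94), by a log2 difference of -1.20 ± 0.20 (adjusted p = 0.0006). Centred on hybridisation controls it was -0.61 (adjusted p = 0.5). Ccl1 and Ccl28 were not called in any comparison on the chosen probe sets, with values of 4.13 to 4.95 and 4.64 to 5.61. Another Ccl28 probe set read 5.17 to 5.28 in the C57BL/6J line, 3.67 and 4.48 in its tissue and 3.71 to 4.11 in the tsA58 line. On it the group means differed by 1.16 between C57BL/6J line and tissue, and by -1.35 between the lines.

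On the chosen probe sets, the membrane-bound chemokines Cx3cl1 and Cxcl16 were modestly higher than tissue in 1 line each. Cx3cl1, or fractalkine, read 6.54, 6.12 and 6.92 in the tsA58 line and 5.46, 5.74 and 5.28 in its tissue, a difference of 1.03 ± 0.23 (limma, adjusted p = 0.0038). It was under 2-fold, at 0.84 and 0.93, without tsA58 line replicate 3 or tsA58 tissue replicate 3, while the gene's most variable probe set gave 1.90 (adjusted p = 0.00047). On that probe set the tsA58 line mean was 1.98 above the C57BL/6J line mean, where the chosen probe set gave 0.49. Cxcl16, the ligand of CXCR6, read 9.24, 9.10 and 8.71 in the C57BL/6J line against 7.22 and 7.69 in tissue, a difference of 1.56 ± 0.44 (adjusted p = 0.013). Without C57BL/6J tissue replicate 1 it was 1.33 (adjusted p = 0.1), and with cyclic loess 1.25 (adjusted p = 0.057). In tsA58 its line values of 8.25, 7.14 and 8.81 overlapped the tissue values of 7.17, 7.86 and 7.01.

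Several ligands were lower in the lines than in tissue. Cxcl13, which attracts B cells through CXCR5, read 4.51, 4.72 and 4.99 in the C57BL/6J line and 8.28 and 7.0 in its tissue. It read 4.78, 4.28 and 5.08 in the tsA58 line and 6.23, 7.73 and 9.0 in its tissue. The lines were near the array median and did not overlap the tissues, with differences of -2.90 ± 0.65 (limma, adjusted p = 0.0042) and -2.94 ± 0.59 (adjusted p = 0.002). Without C57BL/6J tissue replicate 1 the first was -2.26 (adjusted p = 0.057). The most variable probe set of Cxcl13 gave -4.97 and -5.73. The 3 B cell markers found on the array were near or below the median in all 4 groups, with array means of 3.60 to 4.67. The part of B cells in the Cxcl13 result was not tested.

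Ccl11, or eotaxin, which attracts eosinophils through CCR3, read 3.80, 4.06 and 4.02 in the tsA58 line and 7.21, 9.31 and 9.51 in its tissue. In the C57BL/6J line it read 4.52, 4.99 and 5.15, and in C57BL/6J tissue 6.51 and 5.60. The tsA58 tissue stood above all other groups, and the groups did not overlap. The tsA58 line-tissue difference was -4.72 ± 0.52 (limma, adjusted p = 3.9e-05) and the interaction -3.55 ± 0.77 (adjusted p = 0.0099). The tissues differed by 2.62 ± 0.58 (adjusted p = 0.011). Without C57BL/6J tissue replicate 2 the interaction was -3.10 (adjusted p = 0.055) and the tissue difference 2.17 (adjusted p = 0.11). With the actin ratio as a covariate the tissue difference had an adjusted p of 0.052, and with only the 2 tissue groups in the fit 0.067.

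Ccl6, a CCR1 ligand made by macrophages and other myeloid cells, was called lower in the tsA58 line. It read 4.03, 3.77 and 4.15 in the tsA58 line, 6.75, 9.66 and 9.88 in its tissue, 4.08, 4.36 and 4.03 in the C57BL/6J line and 5.99 and 5.37 in that tissue. Both lines were at or below the array median, and only tsA58 tissue was well above it. The tsA58 line-tissue difference was -4.78 ± 0.65 (limma, adjusted p = 0.00018), and the C57BL/6J one, -1.52 ± 0.73, was not called (adjusted p = 0.11). In a fit of the 2 C57BL/6J groups alone the latter had an adjusted p of 0.00095. The interaction of -3.26 ± 0.98 (adjusted p = 0.037) was lost on leaving out any 1 library other than tsA58 line replicate 3 and tsA58 tissue replicate 1, at -3.56 to -2.70 (adjusted p = 0.063 to 0.13). The tissue difference was 3.08 ± 0.73 (adjusted p = 0.015), and without C57BL/6J tissue replicate 1 or 2 it was 2.77 to 3.39 (adjusted p = 0.07 to 0.12).

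Ccl9, a further CCR1 ligand of macrophages, read 7.96, 4.67 and 5.90 in the tsA58 line and 6.93, 9.39 and 8.47 in its tissue, which overlapped. The other groups read 4.96 to 5.80. Its difference of -2.09 ± 0.76 (limma, adjusted p = 0.043) was lost on leaving out any 1 library other than tsA58 line replicate 1 and tsA58 tissue replicate 1, at -2.09 to -1.34 (adjusted p = 0.057 to 0.16). Array weights gave -0.95 (adjusted p = 0.28). Ccl24, another eotaxin, read 5.45, 5.16 and 5.74 in the tsA58 line and 5.81, 7.31 and 6.40 in its tissue, a difference of -1.06 ± 0.33 (adjusted p = 0.023). Without tsA58 line replicate 1 or 2 or tsA58 tissue replicate 2 it was -1.06 to -0.65 (adjusted p = 0.055 to 0.075). Most macrophage markers were also lower in the lines than in tissue. In tsA58, 8 of 11 tested were called lower and 1 higher, where 18.9% of all genes were called lower and 12.8% higher. In C57BL/6J, where Ccl9 was not called, 8 were lower and 2 higher, against 16.6% and 17.5% of all genes. Of 12 such genes, 10 (tsA58 line) and 9 (C57BL/6J line) were near or below the median, against 2 and 3 in the tsA58 and C57BL/6J tissues. Their part in these results was not tested.

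**Figure D5:**
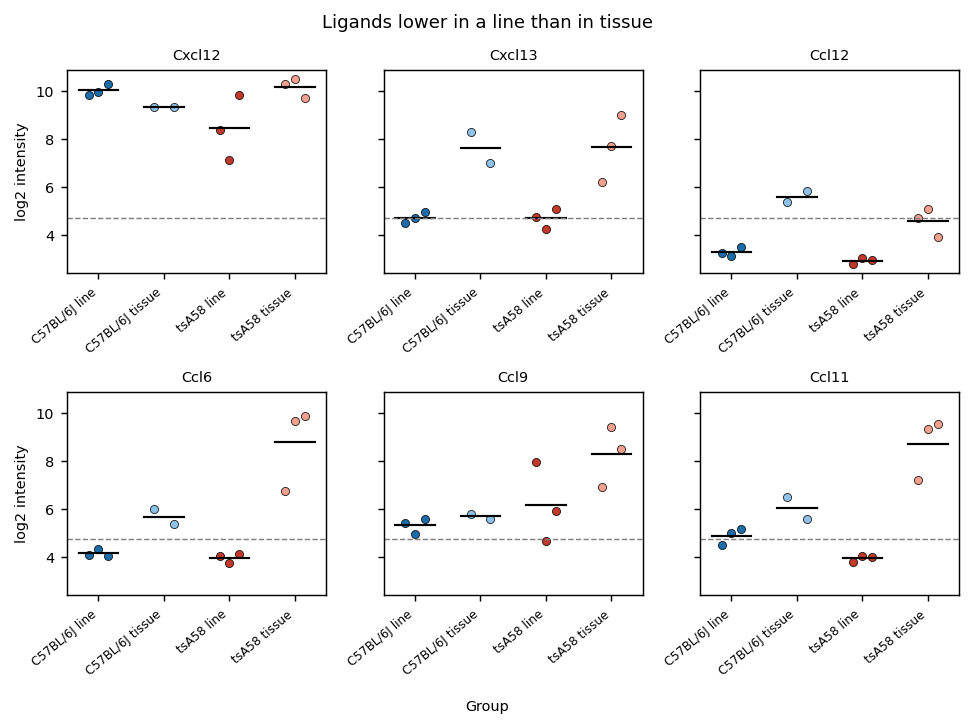
Log2 intensity (y axis) of Cxcl12, Cxcl13, Ccl12, Ccl6, Ccl9 and Ccl11 in the 4 groups (x axis), with 1 point per array, a bar at the group mean and a dashed line at the mean array median of 4.74. Cxcl13 and Ccl12 are above the lines in both tissues, whereas Ccl6 and Ccl11 reach 9.88 and 9.51 in tsA58 tissue and stay at or under 6.51 in the other groups.

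Cxcl12, the stromal ligand of CXCR4 and Ackr3, was well above the array median in all 4 groups. In C57BL/6J the line read 9.84, 9.96 and 10.26 and the tissue 9.35 and 9.34. In tsA58 the line read 8.36, 7.15 and 9.81 and the tissue 10.28, 10.47 and 9.69. Replicate 3 of the tsA58 line overlapped its tissue. The tsA58 difference of -1.71 ± 0.52 (limma, adjusted p = 0.02) was -2.40 (adjusted p = 0.00038) without that replicate. It was -1.67 to -1.06 (adjusted p = 0.052 to 0.062) without tsA58 line replicate 1 or 2 or tsA58 tissue replicate 1 or 2. The probe sets disagreed. The most variable one put the C57BL/6J line 2.87 above its tissue (adjusted p = 0.0031), where the brightest gave 0.68 ± 0.58 (adjusted p = 0.37), and the tsA58 line at -0.30 from its tissue (adjusted p = 0.68). Between the lines the brightest gave -1.58 ± 0.52 (adjusted p = 0.051) and the most variable -3.41 (adjusted p = 0.0019). Without replicate 3 of the tsA58 line the brightest gave -2.27 between the lines (adjusted p = 0.0011). The interaction was -2.39 ± 0.78 (adjusted p = 0.051), and -3.08 (adjusted p = 0.0018) without that replicate.

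Cxcl14, a ligand of epithelia and stroma, was near the median everywhere. The tsA58 line read 4.06, 4.09 and 4.15, its tissue 4.72, 5.42 and 5.24, and the C57BL/6J groups 3.71 to 4.09. The tsA58 tissue was above all other arrays. The line-tissue difference was -1.03 ± 0.21 (limma, adjusted p = 0.0021), and under 2-fold, at -0.97 to -0.88, without tsA58 tissue replicate 2 or 3. The most variable probe set of Cxcl14 gave -2.45 (adjusted p = 0.005), but 1.37 between the tissues (adjusted p = 0.14) and -1.73 in the interaction (adjusted p = 0.16), which lost both of those calls. The tissue difference was 1.22 ± 0.23 (adjusted p = 0.0054), and 1.03 (adjusted p = 0.07) without C57BL/6J tissue replicate 1. The interaction of -1.06 ± 0.31 (adjusted p = 0.032) was lost on leaving out any 1 library other than tsA58 line replicate 3 and tsA58 tissue replicate 1, at -1.25 to -0.86 (adjusted p = 0.053 to 0.15). Cxcl17, Ccl4 and Ccl17 were not called in any comparison. Cxcl17, a mucosal ligand, read 5.60 to 6.60 in the lines and 6.12 to 8.72 in the tissues. Ccl4 read 3.83 to 5.21, and Ccl17 was between 4.48 and 5.42 on all arrays but tsA58 line replicate 1, at 7.08.

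Between the lines, 7 of 28 members were called, 3 higher and 4 lower in the tsA58 line, where 14.2% of all genes were called (8.38% higher, 5.77% lower). Cxcl10, Cxcl11 and Ccl5 were higher in the tsA58 line, and Cxcl1, Cxcl2, Cxcl15 and Ccl20 higher in the C57BL/6J line. Another CXCR2 ligand, Cxcl5, was called higher in the tsA58 line when tsA58 line replicate 1 or 3 was left out. The number called was 14 (13 higher, 1 lower) with arrays centred on hybridisation controls and 12 (6 higher, 6 lower) with array weights. Without tsA58 line replicate 3 it was 11 (4 higher, 7 lower), not all of them named here. Between the tissues, 4 of 28 were called, with Ccl6, Ccl11 and Cxcl14 higher and Ccl12 lower in tsA58 tissue, where 12.8% of all genes were called (9.56% higher, 3.21% lower). Ccl12 differed by -1.01 ± 0.31 (limma, adjusted p = 0.044). It was lost on leaving out any 1 library other than tsA58 line replicate 3 and tsA58 tissue replicate 2, at -1.24 to -0.68 (adjusted p = 0.053 to 0.28), and was 1.12 when arrays were centred on hybridisation controls. The number called between tissues was 26, all higher, under that centring, 1 with only the tissue arrays in the fit, 1 and 2 without C57BL/6J tissue replicate 1 and 2, and 2 with a stricter filter. Macrophage markers averaged 7.16, 8.42 and 7.79 on tsA58 tissue replicates 1 to 3 and 4 mast cell markers 6.17, 8.64 and 6.69, against 5.67 and 5.69 for the mast cell markers in C57BL/6J tissue. Their part in the tissue differences was not tested.

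Most receptors for these ligands were low in every group. Of 17 typical chemokine receptors found on the array, 15 were near or below the median in the C57BL/6J line and 16 in its tissue. The numbers in tsA58 were 16 for the line and 17 for the tissue, and 5 receptors were tested. Ccr1, the receptor of Ccl5, Ccl6 and Ccl9, was lower in both lines than in tissue, at -2.11 ± 0.38 (limma, adjusted p = 0.0011) and -1.99 ± 0.34 (adjusted p = 0.0008). Centred on hybridisation controls these were -0.88 and -1.39 (adjusted p = 0.27 and 0.091). Ccr7, the receptor that leads dendritic cells to lymph nodes, was 2.88 ± 0.86 higher in the C57BL/6J line than in its tissue (adjusted p = 0.018). That call was lost without C57BL/6J line replicate 3 or C57BL/6J tissue replicate 1 or 2, at 2.44 to 2.91 (adjusted p = 0.061 to 0.085). Of 5 atypical receptors, which take up chemokines without G protein signalling, 4 were called lower in the tsA58 line than in tissue, where 18.9% of all genes were, and 1 in C57BL/6J, where 16.6% were. The interaction called 1 of the 5. Ackr3, which scavenges Cxcl12, was at -3.59 ± 0.41 (adjusted p = 5.7e-05) and -2.20 ± 0.46 (adjusted p = 0.0028), the latter -0.97 (adjusted p = 0.22) centred on hybridisation controls.

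Of 11 tested genes of the NF-kappaB pathway, 7 were called higher and 0 lower in the C57BL/6J line against its tissue, and 6 higher and 0 lower in the tsA58 line. Of all genes, 17.5% and 12.8% were called higher. The median differences were 2.14 and 1.25, against 0.12 and -0.00 over all genes. Bcl3, a nuclear partner of NF-kappaB, was higher by 4.05 ± 0.61 (limma, adjusted p = 0.00035) and 2.70 ± 0.55 (adjusted p = 0.0022), and Relb, a subunit, by 2.58 ± 0.27 (adjusted p = 3.4e-05) and 1.48 ± 0.24 (adjusted p = 0.00065). Nfkbiz, an inducible cofactor of NF-kappaB, read 10.68, 10.65 and 10.54 in the C57BL/6J line and 8.15, 8.09 and 8.95 in the tsA58 line, with 7.64 to 8.19 in the tissues. Like Cxcl1 and Cxcl2, it was above every other array in the C57BL/6J line. It exceeded C57BL/6J tissue by 2.91 ± 0.26 (adjusted p = 1.1e-05), and its interaction was -2.50 ± 0.35 (adjusted p = 0.0012). Between the lines it differed by -2.23 ± 0.23 (adjusted p = 0.00012), or -0.74 (adjusted p = 0.26) centred on hybridisation controls. Nfkbiz was the only 1 of the 11 called between the lines and the only 1 in the interaction, where 14.2% and 20.3% of all genes were called. The median difference of the 11 between the lines was 0.31, against -0.04 for all genes. Any link of Nfkbiz to Cxcl1 and Cxcl2 was not tested.

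Of 12 tested interferon signalling genes, 4 were called higher and 0 lower in the tsA58 line than in the C57BL/6J line, where 8.38% of all genes were called higher. Against tissue, 6 were called higher and 1 lower in C57BL/6J, where 17.5% and 16.6% of all genes were. In tsA58, 4 were higher and 2 lower, against 12.8% and 18.9% of all genes. The interaction was positive for 2 and negative for 4, against 7.3% and 13% of all genes. Irf7, a transcription factor induced by interferon, read 9.74, 10.14 and 9.06 in the tsA58 line. The C57BL/6J line read 6.42, 6.11 and 5.44, and the tissues 4.79 to 6.65. As for Cxcl10, the tsA58 line was above every other array. Any link of Irf7 or the other genes of this list to Cxcl10 was not tested. Irf7 differed by 3.65 ± 0.40 between the lines (limma, adjusted p = 0.00017). Its interaction was 2.92 ± 0.60 (adjusted p = 0.0076), or 2.28 (adjusted p = 0.16) centred on hybridisation controls. Stat2 and Irf9, partners in the complex that type I interferons activate, were 2.21 ± 0.32 (adjusted p = 0.00095) and 2.24 ± 0.37 (adjusted p = 0.0021) higher in the tsA58 line than in the C57BL/6J line. Ifnar2, a chain of the type I interferon receptor, went another way. It was 3.04 ± 0.25 higher in the C57BL/6J line than in its tissue (adjusted p = 6.5e-06), with an interaction of -2.18 ± 0.33 (adjusted p = 0.002) that was -2.82 (adjusted p = 0.055) centred on hybridisation controls.

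Among 9 genes that process chemokines or hold them on the cell surface, 2 were called higher and 1 lower in the C57BL/6J line against tissue, and 4 higher and 2 lower in the tsA58 line. The C57BL/6J count is a share near the 34.1% of all genes called, and in tsA58 31.7% were. Dpp4, a peptidase that clips the amino terminus of Cxcl10, Cxcl12 and Ccl11 among others, read 2.57, 2.65 and 3.33 in the tsA58 line and 7.25, 8.0 and 8.44 in its tissue. It read 4.36 to 4.77 in the C57BL/6J line and 6.93 and 7.45 in that tissue, so both lines were near or below the array median. The differences were -5.05 ± 0.32 (limma, adjusted p = 6e-07) and -2.66 ± 0.35 (adjusted p = 0.00016), the latter -1.43 (adjusted p = 0.077) centred on hybridisation controls. Mmp8, a collagenase that also cleaves chemokines, was higher in the tsA58 line, by 2.96 ± 0.21 against its tissue (adjusted p = 1.7e-06), and by 1.60 ± 0.21 against the C57BL/6J line (adjusted p = 0.00059).

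Neighbouring genes did not all share a pattern. On chromosome 5, Cxcl5, Cxcl3, Cxcl15, Cxcl1 and Cxcl2 follow each other among the members, and of the 5, Cxcl1, Cxcl2 and Cxcl15 were highest in the C57BL/6J line, Cxcl5 in the tsA58 line, and Cxcl3 was at 2.40 to 2.79 on every array. Also there, Cxcl10 lies between Cxcl9, at or under 4.72, and Cxcl11. On chromosome 11 the order was Ccl2, Ccl7, Ccl11, Ccl12, Ccl8 and Ccl1, in which Ccl2 and Ccl7 were higher in both lines while Ccl11 and Ccl12 were lower in 1 or both. A second run there, Ccl5, Ccl9, Ccl6, Ccl3 and Ccl4, held Ccl5, higher in the tsA58 line, beside Ccl9 and Ccl6, lower in it.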

How the data were processed

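RNA from 4 groups was amplified, labelled and hybridised to Affymetrix whole-genome mouse arrays, and the deposited log2 values come from RMA, per the submitters' processing notes. The RMA software and its version are not given in the sources used here. RMA makes arrays share 1 distribution, so a change common to most genes cannot be seen, and no read depth exists for an array. The number of arrays limits the precision.

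The platform annotation gave 1 symbol to 34945 of 45101 probe sets, several to 932 and none to 9160, with 64 controls left out. An Entrez ID matched RefSeq for 34741 of the named ones, and no symbol changed. Genes above the array median on at least 2 arrays (13285 of 18193) were tested in 1 model of 4 groups with lmFit and eBayes in limma 3.58.1 (R 4.3.3), with 7 residual and 3.49 prior degrees of freedom. A call needed a Benjamini-Hochberg adjusted p below 0.05 and a 2-fold change. The script was tested on simulated data. Tables and figures used Python 3.11.15 with numpy 2.4.6, pandas 2.3.3 and matplotlib 3.10.9.

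The members and all gene lists were chosen with earlier results of these data known. Any member that passed the filter could be named, called ones first, and others only by their range. Of the other lists, up to 4 called genes per comparison with the largest change could be named, with the typical receptors of called ligands. The groups share replicate numbers. Deviations of the 15 same-numbered pairs correlated at -0.16 to 0.25, so the numbers were not taken to pair arrays. Alternatives were quantile normalisation, cyclic loess, centring on 18 hybridisation control probe sets, no filter, a stricter filter, the mean or the most variable probe set, the actin 3′ to 5′ ratio as a covariate, a replicate block, array weights, only the groups compared, and leaving out each array.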

Additional observations from a re-analysis of the deposited data

Results flagged for a closer look

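For 9 members the line-tissue difference in tsA58 differed from that in C57BL/6J by the interaction term of the limma model. The term keeps the sign: a positive value means that line minus tissue was more positive, or less negative, in tsA58. A negative value can thus mean a larger fall in tsA58, as for Ccl6 (-4.78 against -1.52 in C57BL/6J). It can also mean a smaller rise, as for Cxcl1 (0.32 against 3.33). The term was positive for Ccl5 (4.11, adjusted p = 0.00053), Cxcl10 (3.42, adjusted p = 0.00091) and Cxcl11 (2.28, adjusted p = 0.04). It was negative for Ccl11 (-3.55, adjusted p = 0.0099), Ccl6 (-3.26, adjusted p = 0.037), Cxcl1 (-3.01, adjusted p = 0.0006), Cxcl2 (-2.78, adjusted p = 0.00076), Cxcl15 (-1.96, adjusted p = 0.014) and Cxcl14 (-1.06, adjusted p = 0.032). For Cxcl11, Ccl6, Ccl11, Cxcl14 and Cxcl15 the call was lost when some single arrays were left out. For Ccl11, Ccl6 and Cxcl14 the tissues also differed.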

How the results depend on the processing

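Of 51 calls for 23 members, counting each comparison, 26 kept their direction and side of the threshold under every alternative that tested them, and 25 lost the call under at least 1. Centring on hybridisation controls lost 14 and reversed 1, fitting only the groups compared lost 8 of 42, the stricter filter lost 0 of 41, and the other settings that used all arrays lost 2 to 6 of 51. The numbers of members called that moved by over 1.5 times were 14 between the lines with that centring and 12 with array weights. Between the tissues they were 26 with that centring, 2 with the stricter filter and 1 with only the tissue arrays. Leaving out each array in turn gave 11 to 14 called members in the C57BL/6J line-tissue comparison, 14 to 18 in tsA58, 6 to 11 between the lines, 1 to 6 between the tissues and 4 to 13 in the interaction. With the replicate number as a block the counts were 12, 18, 7, 4 and 7 in the same order. Values that reversed were Ccl12 between tissues, at 1.12 (adjusted p = 0.11) with hybridisation centring, and Cxcl5 between lines, at -0.30 (adjusted p = 0.86) with the actin covariate. The cause was not tested. C57BL/6J tissue rests on 2 arrays, and 12 members were near or below the array median in all groups, where signal over background is low.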
